A study of Mus musculus with 5 samples.

Results

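Of 89204 regions merged from 4 histone peak lists of mouse gliomas, 4210 (4.72%) held trimethylated lysine 4 of histone H3 (H3K4me3) in Olig2cKO tumours and no other listed peak. Peaks of H3K4me3 and of acetylated lysine 27 of histone H3 (H3K27ac), each mapped by chromatin immunoprecipitation and sequencing in control and in Olig2cKO tumours, were merged where they overlapped or touched, on chromosomes 1 to 19. The regions were chosen by measured peak calls: a region was kept when it was made of Olig2cKO H3K4me3 peaks alone and overlapped no peak of the transcription factor Olig2. These are called Olig2cKO-only H3K4me3 regions here, where only means that no overlapping peak was listed elsewhere, not that a mark was absent. Each of them consisted of 1 peak, so the score and width of a region are those of its peak.

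The tumours were brain gliomas induced with PDGFB and collected 25 days after virus injection, from mice of a mixed C57Bl/6;129Sv;CD-1 background. Control tumours (Ctrl-T) carried floxed alleles that include P53f/f, and Olig2cKO tumours carried the same alleles and Olig2f/f in addition. The source of the recombinase and the number of tumours in a library are not given in the sources used here. There were 5 libraries with 1 library per group: Olig2 in control tumours, and each histone mark in each genotype. Olig2 binding was mapped in control tumours. Whether Olig2 protein was lost from Olig2cKO tumours was not analysed here. With 1 library per group no difference between genotypes has a replicate check, and no test between genotypes was made.

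H3K4me3 is laid down by the SET1 and MLL methyltransferase complexes and is found mainly around the starts of transcribed genes and at CpG-rich sequence. At active promoters it is usually joined by H3K27ac, which acetyltransferases such as p300 and CBP place at promoters and enhancers. H3K4me3 without acetylation is known from promoters that are weakly used or held silent, including those that also carry the Polycomb mark H3K27me3, which was not among these libraries. Olig2 is a basic helix-loop-helix factor of the oligodendrocyte lineage. Gene positions on mm9, the build of the peak lists, were not used here, so the regions are described by position, strength, width and surroundings, and none is assigned to a gene.

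The Olig2cKO H3K4me3 list held 47634 peaks on these chromosomes, and 8.84% of them (95% exact interval 8.58 to 9.10) made up the Olig2cKO-only regions. All intervals given here are exact binomial intervals at 95%. They cover counting error alone, and peaks close to each other are not independent. Of the Olig2cKO H3K4me3 peaks, 10237 (21.5%) overlapped no control H3K4me3 peak, and the 4210 regions were 41.1% (40.2 to 42.1) of those. H3K27ac of Olig2cKO tumours lay at 5242 of the 10237 peaks (51.2%), H3K27ac of control tumours at 3406 (33.3%), and Olig2 at 2481 (24.2%). The same shares over the whole Olig2cKO H3K4me3 list were not computed, so these cannot be called high or low. These overlaps are what the selection used, so they describe the choice and test nothing.

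With the genotypes exchanged, the same selection gave 968 regions made of control H3K4me3 peaks alone (1.09% of all regions). They were 2.23% (2.09 to 2.37) of the 43472 control H3K4me3 peaks. The Olig2cKO list was longer by number of peaks, and the reads behind each list are unknown. With both H3K4me3 lists cut to the same number of peaks by score, the counts were 2927 Olig2cKO-only and 1290 control-only regions. Among the upper 50% of each H3K4me3 list by score, set against all peaks of the other lists, they were 161 and 20. The order was the same in these settings, and the ratio between the counts changed with each of them.

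Olig2cKO-only regions were weak peaks of their own list. Peak scores come from the authors' peak caller, begin at 50, and rank peaks only inside a list. The scores of the 4210 regions ran from 50.02 to 1220.15 with a median of 88.9, where the other peaks of the list had a median of 382.6. The median region stood at percentile 15.3 of the list. In all, 4049 regions (96.2%, 95.6 to 96.7) lay in the lower 50% of the list by score, and 2401 had a score under 100. Scores of 500 or more were reached by 43 regions. The control-only regions had a median percentile of 9.81 in the control list, so weakness was shared by the regions of both genotypes.

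The share of Olig2cKO-only regions fell with each score decile of the list. It was 30.8% (29.5 to 32.2) of the peaks in the lowest decile, where 29.5% (28.2 to 30.9) overlapped a control H3K4me3 peak. It was 15.8% in the third decile and 5.63% in the fifth. In the eighth decile 3 peaks and in the ninth 2 peaks were such regions, and in the highest decile there were 0 of 4763. A count of 0 allows a share of up to 0.063% when the limit is set at 3 peaks, and the upper end of the exact interval is 0.0774%. Over the same range the share of peaks with a control H3K4me3 partner rose to 99.98%.

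**Figure D1:**
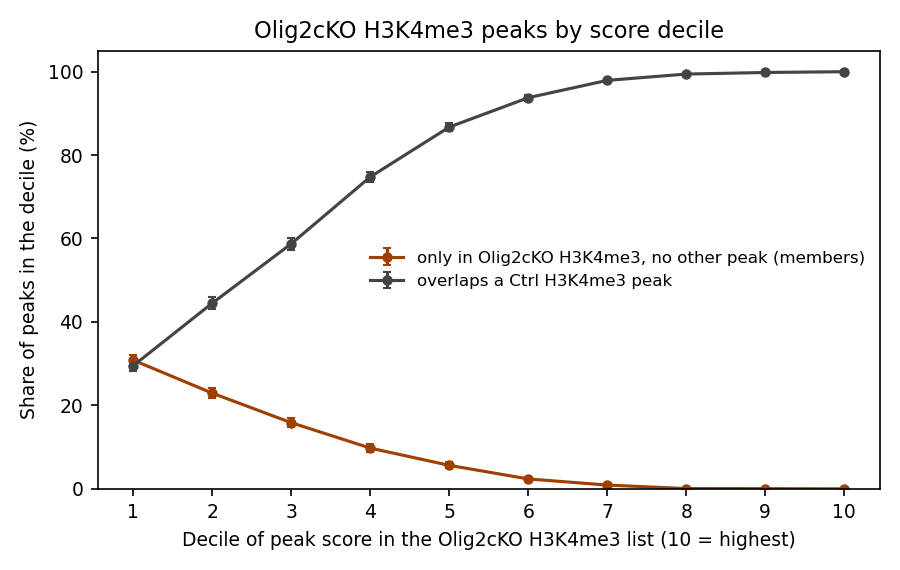
Share of Olig2cKO H3K4me3 peaks (y axis, percent) in each score decile of their list (x axis, decile 10 highest) that were Olig2cKO-only regions, called members in the legend (brown), or overlapped a control H3K4me3 peak (grey). Bars are 95% exact binomial intervals; the brown points fall from 30.8% to 0 while the grey points rise from 29.5% to 99.98%.

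The regions were narrow, and most were of similar width. The median width was 697 bp, with 474 bp at the tenth percentile and 1078 bp at the ninetieth, and together they covered 3.17 Mb. Width grew with score (Spearman's rho of 0.69 across the 4210 regions, given as a description, since both values come from the same reads). Compared with all other peaks of the same score decile, the regions were narrower at the median in each of the 9 deciles that held any. In the lowest decile the medians were 543 bp and 586 bp, and in the fifth 989 bp and 1155 bp. The peaks with H3K4me3 alone in both genotypes and no Olig2 peak came closer, with medians of 577 bp and 997.5 bp in these deciles. The eighth and ninth deciles held only 3 and 2 of the regions. A wider peak has more room to overlap a peak of another list, so the selection itself favours narrow peaks. The comparison of widths therefore describes the choice and tests nothing. Control-only regions had a median width of 566 bp, and regions where both marks were listed in Olig2cKO tumours alone had a median of 1291 bp. The latter join peaks of both marks, so their width is not that of a single peak.

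**Figure D2:**
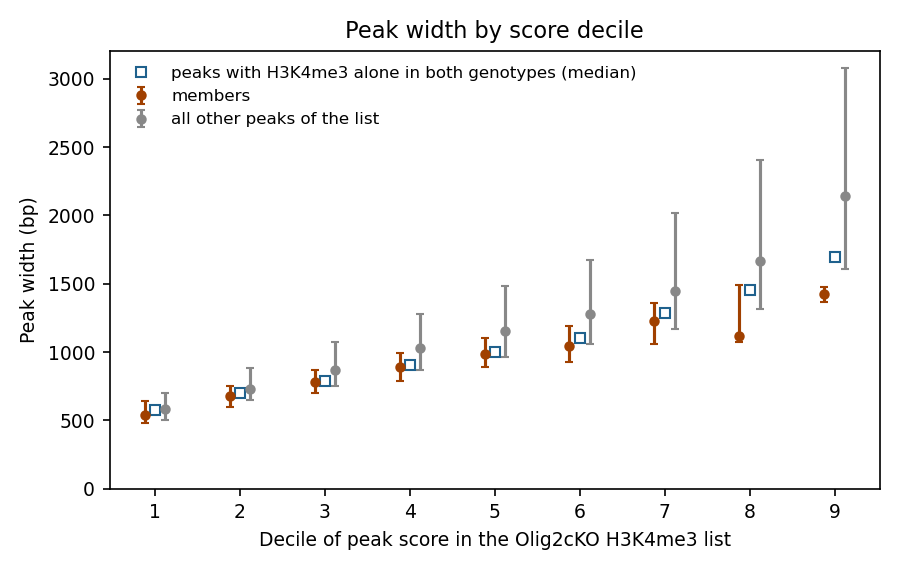
Peak width in bp (y axis) by score decile of the Olig2cKO H3K4me3 list (x axis), for Olig2cKO-only regions (brown, called members), all other peaks of the list (grey) and peaks with H3K4me3 alone in both genotypes and no Olig2 peak (blue squares). Points are medians and bars run from the lower to the upper quartile; deciles 8 and 9 hold 3 and 2 brown peaks, and the brown medians lie below the grey ones in all 9 deciles.

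A small number of regions departed from this pattern. The 5 widest were weak: chr15:85493700-85501041 (7342 bp) had a score of 50.97, and chr18:81161543-81168640 (7098 bp) had 65.14. The next were chr18:83083980-83088691 (4712 bp, score 112.88), chr3:96399251-96403522 (4272 bp, 50.08) and chr7:80690149-80693848 (3700 bp, 53.91). Peaks of other lists lay 49 bp from the edge of the one of 4712 bp and 501 bp from that of 4272 bp, and both stood beside regions that held both marks in both genotypes. In all, 32 regions were wider than 2 kb and 9 were wider than 3 kb.

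The 10 regions with the highest scores carried between 691.73 and 1220.15 in the Olig2cKO H3K4me3 list and, by selection, no peak in the other 4 lists. The highest lay at chr11:36090074-36091604 (1531 bp, score 1220.15), at percentile 82.0 of its list. H3K27ac was listed 3447 bp away in control and 3617 bp away in Olig2cKO tumours, and the nearest control H3K4me3 peak was 31555 bp away. The second lay at chr4:138415031-138416346 (score 1120.92), with Olig2cKO H3K27ac at 2543 bp, control H3K27ac at 3003 bp, Olig2 at 5754 bp and control H3K4me3 at 7245 bp. The strongest peaks were thus not all remote from marked chromatin.

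The third, at chr6:90181797-90183658 (1862 bp, score 1091.64), was far from all lists. Its nearest control and Olig2cKO H3K27ac peaks were 94467 and 94623 bp away, and its nearest other region was a further Olig2cKO-only H3K4me3 region at 58883 bp. The fourth, at chr4:125264794-125265912 (score 960), lay 1019 bp from control H3K27ac, but 40107 bp from Olig2cKO H3K27ac. The fifth, at chr4:136720296-136721319 (score 725.86), had control H3K27ac at 5817 bp and Olig2cKO H3K27ac at 41846 bp. Chromosome 4 thus held 3 of the 5 highest.

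The sixth lay at chr7:77769418-77771215 (score 722.95), where control H3K4me3 was 162495 bp away and another Olig2cKO-only region 7233 bp away. The others were chr1:85108183-85109346 (703.86), chr6:54037726-54039088 (700.18), chr18:79453839-79455034 (695.17) and chr5:23544842-23546124 (691.73). The region on chromosome 6 had control H3K27ac 660 bp from its edge, the closest of the 10. For 5 of the 10, the nearest other region carried H3K27ac in control tumours alone, which was so for 6.75% of all Olig2cKO-only regions, and such regions made up 7.96% of all regions.

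Most Olig2cKO-only regions had no peak of another list within 5 kb, and nearly all had one within 50 kb. The nearest peak of any other list was 7157.5 bp away at the median, and 13.4% (12.4 to 14.5) had one within 1 kb. Within 5 kb the share was 40.9% (39.4 to 42.4), within 20 kb it was 77.5%, and within 50 kb it was 92.2%. Counted to the nearest region of any kind, the median gap was 6713.5 bp, where it was 6695 bp for regions with both marks in Olig2cKO tumours only, 4189 bp for control-only regions and 4499.5 bp for H3K4me3 alone in both genotypes. By list, the median distance was 12715.5 bp to H3K27ac of Olig2cKO tumours, 15853 bp to H3K27ac of control tumours, 17003.5 bp to control H3K4me3 and 19237 bp to Olig2. The lists differ in length, from 67928 Olig2cKO H3K27ac to 38527 Olig2 peaks, and this order of distances is also the order of list lengths.

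Close to the regions the order was different. Control H3K4me3, the shortest of the 4 histone lists with 43472 peaks, lay within 500 bp of 202 regions (4.80%, 4.17 to 5.49). Olig2cKO H3K27ac lay that close to 137 (3.25%, 2.74 to 3.84) and control H3K27ac to 95 (2.26%, 1.83 to 2.75). Within 5 kb it was the other way round, with 19.4% for control H3K4me3, 26.8% for Olig2cKO H3K27ac and 22.1% for control H3K27ac. A set of 298 regions lay within 1 kb of a control H3K4me3 peak. In 278 of these (93.3%, 89.8 to 95.9) a control peak that close also overlapped an Olig2cKO H3K4me3 peak, beside 91.9% of all control H3K4me3 peaks. The share of partners was thus near that of the whole control list. At the median, the 298 regions scored 81.8, where the other regions scored 89.9. They were 726 bp wide at the median, and the others 696 bp.

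**Figure D3:**
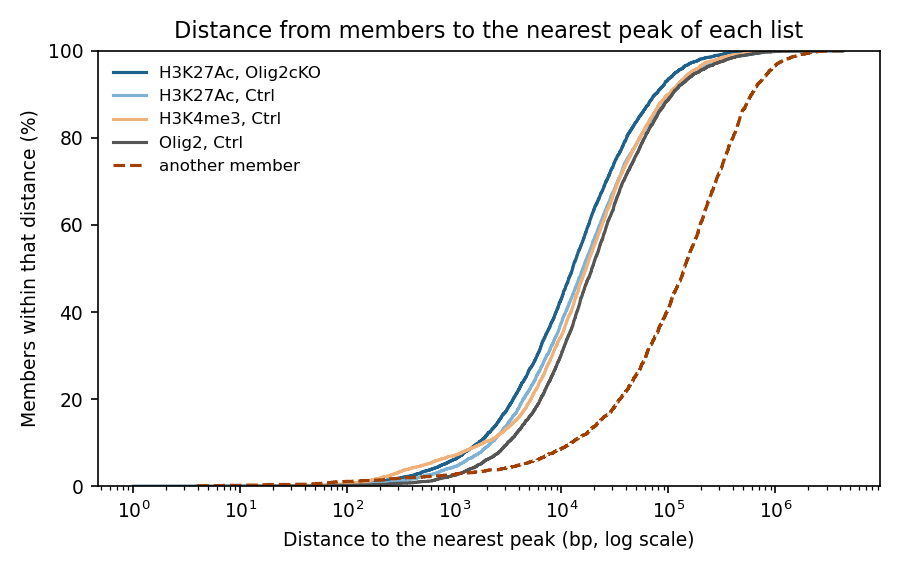
Share of the 4210 Olig2cKO-only H3K4me3 regions (y axis, percent) that had a peak within a given distance (x axis, bp, log scale), for each of the other 4 lists and for the nearest region of the same kind (dashed). The orange line of control H3K4me3 is the highest at 500 bp and is passed by both H3K27ac lines by 5 kb, and the dashed line stays lowest beyond a few kb, with a median of 140502 bp.

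The selection measures how near a peak may come without sharing a region, and the values at that edge were small. The 5 closest regions lay 1, 4, 6, 7 and 8 bp from a peak of another list. Of them, 4 neighboured Olig2cKO H3K27ac and 1, at chr3:102943405-102944538, neighboured control H3K27ac. Just outside the selection, the 5 Olig2cKO H3K4me3 peaks with the smallest overlap met other lists by 5, 5, 6, 11 and 11 bp. In all, 59 regions lay within 100 bp of another list's peak, and 33 peaks were left out for an overlap of 100 bp or less.

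At the other extreme were regions in stretches without peaks of other lists. The farthest lay at chr3:71367896-71368384, with a score of 82.2 and 755945 bp to the nearest peak. On chromosome 4 the regions from 27352876 to 27353806 (score 177.49) and from 121757119 to 121757687 (94.84) were 749886 and 727765 bp away. The remaining 2 of the 5 farthest were a pair on chromosome 12, from 20201940 to 20202336 (142.73) and from 20202732 to 20203879 (339.33), only 395 bp from each other.

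Stronger regions were farther from peaks of the other lists than weak ones. The median distance to the nearest such peak was 5877 bp for the 1469 regions in the lowest score decile, 8205 bp for the 755 in the third and 10265 bp for the 161 in the upper 50% of the list. The share within 5 kb of Olig2cKO H3K27ac fell from 30.4% (28.1 to 32.9) in the lowest decile to 18.01% (12.4 to 24.8) in the upper 50%. Median width rose with the same score classes, from 543 bp to 1079 bp, and its part in this trend was not tested. The selection kept only peaks that met no other list, and a smaller share of peaks in each higher score decile. Its part in the trend was not tested either, so the distances describe the chosen regions alone.

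The surroundings were compared with those of 3 other kinds of region without Olig2. These were the 968 control-only H3K4me3 regions, 6400 regions with H3K4me3 alone in both genotypes, and 1541 regions with both H3K4me3 and H3K27ac in Olig2cKO tumours alone. The nearest other region carried H3K4me3 alone in both genotypes for 16.6% (15.5 to 17.8) of Olig2cKO-only H3K4me3 regions. Neighbours were counted with or without Olig2, and counted so, regions of this kind made up 9.86% of all regions. The share was 17.4% (15.0 to 19.9) for control-only regions, 21.4% (20.4 to 22.4) for regions with H3K4me3 alone in both, and 8.44% (7.10 to 9.94) for those carrying both marks in Olig2cKO tumours only. The difference from the last group has intervals that do not overlap, and neighbouring regions are not independent, so this is a description of these libraries. For the 161 regions in the upper 50% of the Olig2cKO H3K4me3 list, the share was 14.3% (9.28 to 20.7) with all lists whole. With the lower 50% of that list left out and the other lists whole, it was 9.32% (5.31 to 14.9). That cut also removes weak Olig2cKO H3K4me3 peaks from the neighbours, so the 9.32% cannot be set beside the 9.86% of whole lists.

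The order of these shares was also looked at inside score classes of the Olig2cKO H3K4me3 list, a comparison chosen after seeing the data. Among regions in the lower 50% of the list, the shares were 16.7% (15.6 to 17.9), 23.3% (22.0 to 24.8) for H3K4me3 alone in both genotypes and 8.65% (7.22 to 10.2) for both marks in Olig2cKO tumours only. Olig2cKO-only regions lay lower than the other kinds inside that range, so the 5 lower deciles were also taken 1 at a time. The share ran from 16.0% to 17.4% for Olig2cKO-only regions, from 22.0% to 23.98% for H3K4me3 alone in both genotypes, and from 6.13% to 11.9% for both marks in Olig2cKO tumours only. The order was the same in each of the 5 deciles. The intervals overlapped in the lowest decile against H3K4me3 alone in both, and in the fourth decile against both marks in Olig2cKO tumours only. At least 1 region with H3K4me3 alone in both genotypes, with or without Olig2, lay within 50 kb of 40.2% (38.7 to 41.7) of Olig2cKO-only regions. That share was 45.97% (42.8 to 49.2) for control-only regions, 49.4% for regions with H3K4me3 alone in both genotypes, and 31.5% (29.2 to 33.9) for both marks in Olig2cKO tumours only. The 4 kinds stood in the same order within 20 kb and within 100 kb, where the share of Olig2cKO-only regions was 21.9% and 59.2%.

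H3K27ac alone in both genotypes, or in Olig2cKO tumours alone, was nearest more often than for the other H3K4me3-only regions. It was nearest less often than for regions with both marks in Olig2cKO tumours only. H3K27ac alone in both genotypes was nearest to 14.6% (13.5 to 15.7) of Olig2cKO-only H3K4me3 regions, and H3K27ac in Olig2cKO tumours alone to 14.8% (13.7 to 15.9). For regions carrying both marks in Olig2cKO tumours only these shares were 18.3% (16.4 to 20.3) and 19.3% (17.4 to 21.4). They were 11.8% (9.81 to 14.0) and 11.6% (9.62 to 13.8) for control-only regions, and 11.6% (10.8 to 12.4) and 11% (10.2 to 11.8) for H3K4me3 alone in both genotypes. The intervals of control-only regions overlapped those of Olig2cKO-only regions. H3K27ac in control tumours alone was nearest to 6.75% (6.01 to 7.55) of Olig2cKO-only regions and 6.92% (5.40 to 8.71) of control-only regions. The share was 5.91% (5.34 to 6.51) for H3K4me3 alone in both genotypes and 9.60% (8.18 to 11.2) for both marks in Olig2cKO tumours only. Of all regions, 18.6% carried H3K27ac alone in both genotypes and 17.4% in Olig2cKO tumours alone. Another region of Olig2cKO H3K4me3 alone, with or without Olig2, was nearest in 463 cases (10.998%, 10.1 to 11.98), beside 5.26% of all regions. Such a region was nearest to 9.19% (7.45 to 11.2) of control-only regions, an interval that overlaps. It was nearest to 8.92% (8.23 to 9.65) of regions with H3K4me3 alone in both genotypes. For both marks in Olig2cKO tumours only the share was 5.84% (4.72 to 7.13). Among the 654 regions with a neighbour within 1 kb, H3K4me3 alone in both was that neighbour in 28.0% (24.6 to 31.6), and Olig2cKO H3K4me3 alone in 18.5% (15.6 to 21.7).

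**Figure D4:**
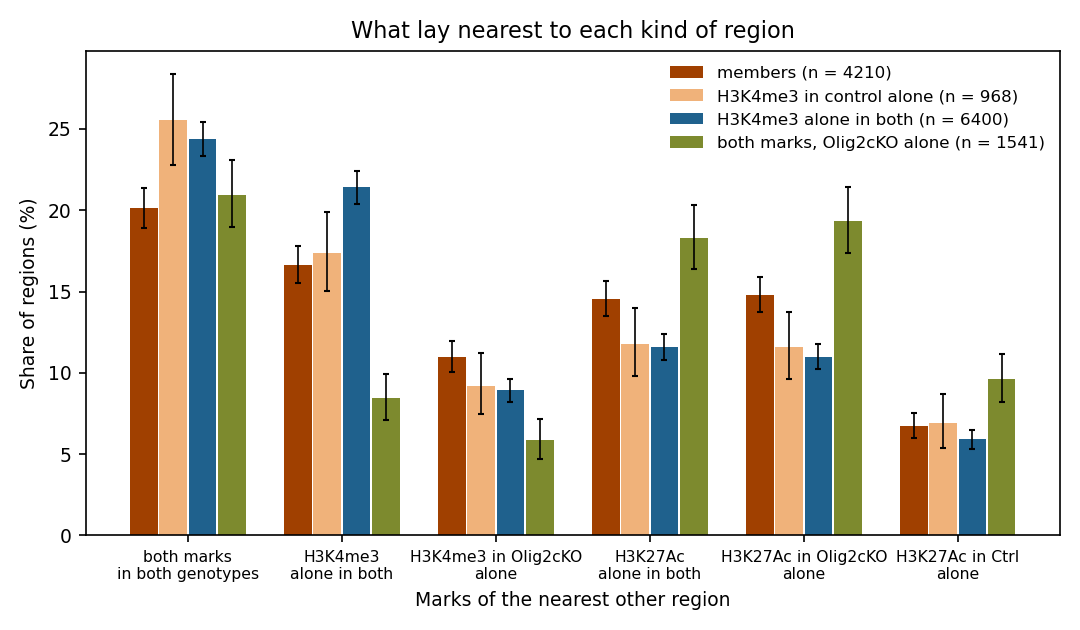
Share of regions (y axis, percent) whose nearest other region carried the marks named on the x axis, for the 4210 Olig2cKO-only H3K4me3 regions (brown, called members) and 3 other kinds of region without Olig2, with 95% exact binomial intervals. H3K4me3 alone in both genotypes was nearest to 16.6% of the brown group and to 8.44% of regions carrying both marks in Olig2cKO tumours only (green); nearest patterns other than the 6 shown are left out.

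Fewer of these sites overlapped an Olig2 peak than of the 3 other kinds. Before the filter on Olig2, 486 of the 4696 regions made of Olig2cKO H3K4me3 alone (10.3%, 9.49 to 11.3) overlapped an Olig2 peak. The share was 23.0% (20.7 to 25.4) of regions with control H3K4me3 alone, 27.3% (26.3 to 28.2) with H3K4me3 alone in both, 21.8% (20.0 to 23.7) carrying both marks in Olig2cKO tumours only and 37.2% of all regions. Olig2 was mapped in control tumours, and the widths of these kinds of region differ, so the shares do not measure an effect of Olig2. The nearest Olig2 peak lay within 5 kb of 15.9% (14.8 to 17.0) of the Olig2cKO-only H3K4me3 regions that were kept, of 20.1% (17.7 to 22.8) of control-only ones and of 22.2% (21.2 to 23.3) of those with H3K4me3 alone in both genotypes. It was lower, at 13.7% (12.01 to 15.5), for regions with both marks in Olig2cKO tumours only.

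The regions were spread over all 19 chromosomes, with few groups at gaps of up to 5 kb. As a share of the Olig2cKO H3K4me3 peaks of a chromosome they ran from 6.94% (6.02 to 7.96) on chromosome 7, with 189 regions, to 10.4% (9.26 to 11.5) on chromosome 10, with 294. Chromosome 18 had the next highest share, 10.1% (8.66 to 11.6), and its interval overlaps that of chromosome 10. The control-only share ran from 1.69% on chromosome 7 to 2.65% on chromosome 16. Chained at gaps of up to 5 kb, 3978 regions stood alone, 220 formed pairs and 12 formed 4 groups of 3. These 4 groups lay at chr1:138844412-138855580, chr2:124452942-124461594, chr11:86222632-86231186 and chr14:118784496-118791897. No peak of the other 4 lists fell between their ends. At the longer distance of 50 kb, 1076 regions (25.6%, 24.2 to 26.9) had another Olig2cKO-only region near them.

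At the scale of 1 Mb, 1749 of the 2354 windows that held any region contained an Olig2cKO-only region, with a median of 2, and 16 windows held 8 or more. The largest number lay in the window at chr13:48000001-49000000, which held 15 among 61 regions (24.6%, where 4.72% of all regions were of this kind). Their scores ran from 51.48 to 369.8. The window held 45 Olig2cKO and 30 control H3K4me3 peaks, 35 Olig2cKO and 25 control H3K27ac peaks and 17 Olig2 peaks. Control-only H3K4me3 regions there numbered 0. The count of 15 moved with the score limit: it was 6 with the upper 50% of each list, and 1 with the upper 50% of the Olig2cKO H3K4me3 list against all other peaks.

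Windows with 10 regions followed at chr8:12000001-13000000, chr11:36000001-37000000 and chr15:98000001-99000000. The window on chromosome 11 held the fewest regions of the 5 described, 36, with 21 Olig2cKO and 12 control H3K4me3 peaks and 16 Olig2cKO and 12 control H3K27ac peaks. It contained the highest scoring region of all. The window on chromosome 15 held 74 regions, of which 30 carried both marks in both genotypes, and its Olig2cKO-only regions reached a score of 231.12. The fifth window, at chr4:154000001-155000000, held 9 among 88 regions. Dense windows were thus found both where peaks were few and where they were many.

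**Figure D5:**
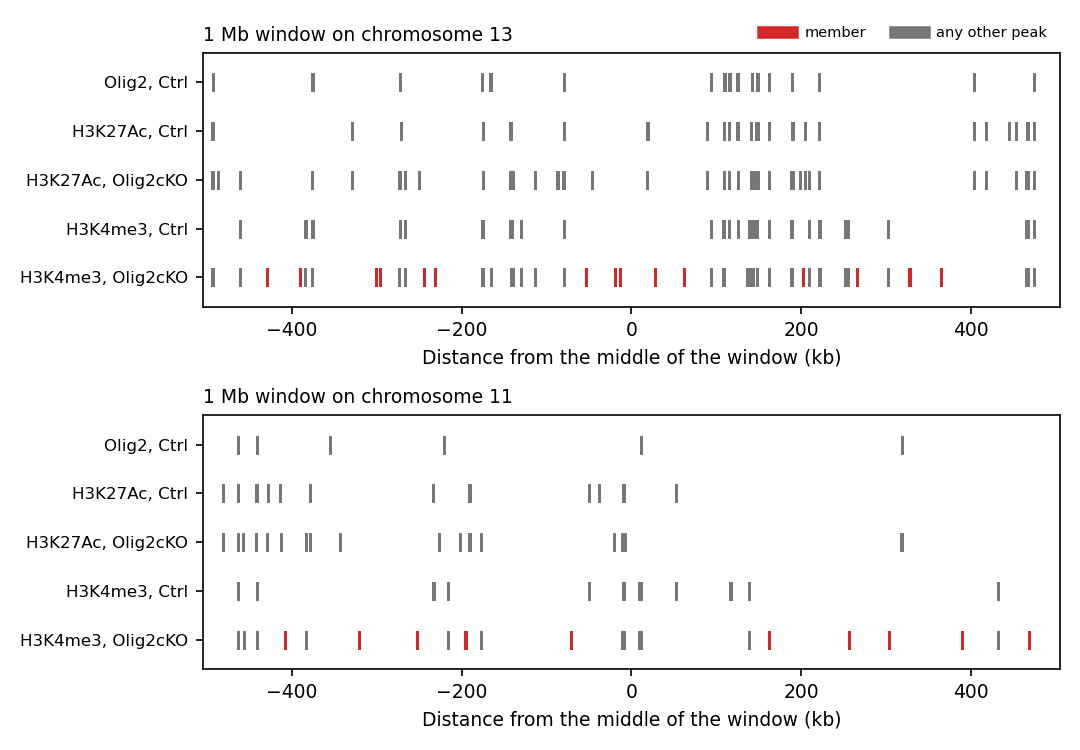
Peaks of the 5 lists along the 1 Mb windows of chromosome 13 (15 Olig2cKO-only regions) and chromosome 11 (10), by distance from the middle of the window in kb (x axis). Each tick is a peak, red for Olig2cKO-only H3K4me3 regions (members) and grey otherwise, and short peaks are drawn wider than they are so that they can be seen; the red ticks are spread across both windows rather than stacked at 1 place.

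Over the 2354 windows, the number of Olig2cKO-only regions went with the number of regions with H3K4me3 alone in both genotypes (Spearman's rho of 0.42), with both marks in both genotypes (0.38) and with H3K27ac alone (0.32). The value was lowest, 0.16, for control-only H3K4me3 regions, which numbered only 968 over the 2354 windows. The part of their small number in that value was not tested. The other kinds were counted here with or without Olig2. These windows share the libraries and a common density of peaks, so the values are a description. Regions in the 16 densest windows had a median score of 97.4 and lay 16253 bp from Olig2cKO H3K27ac at the median, beside 88.6 and 12618 bp for the regions elsewhere.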

How the data were processed

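Peak positions and 1 score per peak were deposited for 5 libraries, 1 list each. CASAVA, Bowtie2 and MACS on mouse build mm9 are named per the submitters' processing notes; versions, settings, an input library and reads per library (hence the depth) are not given in the sources used here. The score of a peak is the authors' own, deposited without scaling between libraries. The lowest lay at about 50, which is a p-value of 1e-05 on the scale that MACS writes by default.

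From these lists, peaks were merged (touching peaks included), regions selected, and distances taken edge to edge with numpy 2.4.6 and pandas 2.3.3 under Python 3.11.15. bedtools 2.31.1 gave the same 89204 and 4210 regions, and on simulated lists 500 of 500 placed regions were found. Intervals are Clopper-Pearson (scipy 1.17.1). Figures used matplotlib 3.10.9. Positions are on mm9 and count from 1. Deciles rank scores on chromosomes 1 to 19.

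The members and the comparisons were chosen with earlier results of these data known. Named regions are the 10 with the highest score, the 5 widest, farthest from and closest to other lists, and the 5 windows of 1 Mb with most regions (ties in chromosome order). Naming those made of most peaks was void, since each held 1. Gene starts, CpG content, repeats and sequences were planned, but no mm9 genome or annotation was used here, and RefSeq tables on GRCm38.p6 were not joined to mm9 positions. The full genotype of the tumours is not reported here.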

Additional observations from a re-analysis of the deposited data

Results flagged for a closer look

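Chromosomes outside the comparison also held regions that met the same selection. On chromosome X there were 124 among 1188 Olig2cKO H3K4me3 peaks (10.4%, 8.76 to 12.3), with a median width of 627 bp and a median score of 88.3, and 34 control-only regions among 1139 control peaks. On chromosome Y there were 9 among 61 peaks (14.8%, 6.98 to 26.2), with a median score of 69.8, and 3 control-only regions among 63 control peaks.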

How the results depend on the processing

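With the upper 50% of each list by score, 2229 regions (9.36% of the Olig2cKO H3K4me3 peaks) met the selection, with a median score of 432.8, a median width of 1196 bp, 23.1% within 5 kb of another list's peak, and 495 control-only regions. With the upper 50% of the Olig2cKO H3K4me3 list against all other peaks, the values were 161, 0.676%, 409.5, 1079 bp and 28.0%. The control-only count beside these, 20, came from the exchanged setting, the upper 50% of the control H3K4me3 list against all other peaks. With H3K4me3 lists of equal length the share was 6.73%, the score 113.6, the width 765 bp and the share within 5 kb 38.4%. Merging peaks up to 1 kb apart gave 7.69%, a score of 91.2 and 32.2% within 5 kb. Requiring an overlap of 50% of the shorter peak gave 9.23% and 43.4%. Keeping regions at least 5 kb from other lists gave 2489 regions (5.23%), a score of 94.4, a width of 681 bp and 449 control-only regions, and fixes the share within 5 kb at none. Without the Olig2 filter, 9.86% met the selection and 47.0% lay within 5 kb. The share with a peak of another list was 13.4% within 1 kb and 77.5% within 20 kb. The share whose nearest region had H3K4me3 alone in both genotypes, 16.6%, fell to 13.6% (12.5 to 14.7) with peaks up to 1 kb apart merged. It was 15.1% for regions at least 5 kb from other lists and 14.8% with the upper 50% of each list. It stayed within its interval with H3K4me3 lists of equal length (15.9%), all sequences (16.8%) and no Olig2 filter (16.8%). The first setting drops the weak peaks of every list, so a region can enter when a weak peak of another list is left out. Its 2229 regions are thus largely not those of the main selection, beside 161 when the other lists stay whole. For the Olig2cKO-only regions, the second setting drops only weak Olig2cKO H3K4me3 peaks, which the selection mostly holds. Other causes were not tested. Of 72 values under alternatives, 34 stayed within the interval of the reported value, or, for counts, within 1.5 times of it. The results on gene starts, CpG content and repeats were not run. No paired analysis was possible because each group has 1 library. Unknown depth limits every difference between the lists.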

Other observations

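Adjacent windows on chromosome 7, singled out after their values were seen, were rich in Olig2cKO-only H3K4me3 regions and poor in acetylation. The window from 77000001 to 78000000 held 9 of them among 23 regions (39.1%), with 21 Olig2cKO and 12 control H3K4me3 peaks but 4 H3K27ac peaks in each genotype. The window from 78000001 to 79000000 held 8 among 16 regions (50.0%), with 14 and 8 H3K4me3 peaks, 4 Olig2cKO H3K27ac peaks and 0 control ones. On chromosome 8, the windows from 116000001 to 117000000 and from 117000001 to 118000000 held 8 each, among 33 and 32 regions. Between 38382325 and 38451552 on chromosome 13, 5 Olig2cKO-only regions lay with no peak of the other 4 lists in 69.2 kb.

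Among the 43 regions with a score of 500 or more, the nearest other region carried H3K27ac in control tumours alone in 8 (18.6%, 8.39 to 33.4), where this was so for 284 of all 4210 (6.75%, 6.01 to 7.55). The score of 500 was chosen after the 10 highest regions had been seen, and the counts overlap, so this is a description of few regions. Without the 10 highest it was 3 of 33 (9.09%, 1.92 to 24.3), beside 7.96% of all regions that were of this kind. For the region on chromosome 4 from 27352876 to 27353806, the nearest peaks of the other 4 lists were 749886 to 750023 bp away, all at about the same place.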
